A study of Mus musculus with 11 samples.

Results

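Aminoacyl-tRNA synthetases are the enzymes that load each amino acid onto its transfer RNA. The 36 genes considered here were chosen by name, as the cytosolic synthetases and the mitochondrial ones, whose symbols end in 2. Earlier results of these data were known when they were chosen. Of these, 35 genes were measured among 17475 genes in all, 20 cytosolic and 15 mitochondrial. Mars2 was not analysed here.

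Messenger RNA was sequenced in 11 libraries from macrophages of mammary tumours of 6 female mice backcrossed to B6. There were 3 MYC TAM libraries (mice 2, 4 and 6), 3 control TAM libraries (mice 1, 3 and 5), 2 MYC MTM libraries (mice 2 and 4) and 3 control MTM libraries (mice 1, 3 and 5). MYC mice carried S100a8-cre, Rosa26-LSL-MYC and PyMT, and control mice carried PyMT alone. PyMT is a viral oncogene that drives mammary tumours, and S100a8-cre switches on a MYC transgene in the myeloid lineage. Mice of both genotypes were irradiated at 7 weeks of age, given bone marrow cells from wild-type B6 donors, and put on a low protein diet 2 weeks later for 6 weeks. Donor-derived macrophages therefore lacked the transgene, and the share of host cells that remained is not given in the sources used here. The study asked how the 2 macrophage populations differ between the genotypes on this diet. Both populations were sorted as CD45+ F4/80+ cells without B220, Ly6C, Ly6G or SiglecF. TAMs, short for tumour-associated macrophages, were Vcam+, and MTMs, a mammary tissue macrophage population, were Vcam- and FOLR2+.

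Cytosolic synthetases charge the tRNAs that feed protein synthesis in the cytoplasm, and mitochondrial synthetases do so for the few proteins made inside mitochondria. Each class has its own genes for most amino acids, whereas Gars and Kars each encode both forms in mammals. Eprs joins the glutamyl and prolyl enzymes in 1 protein, and 8 of the cytosolic genes measured here encode members of the multisynthetase complex, which is held together by the scaffold proteins Aimp1, Aimp2 and Eef1e1. In mammalian cells the transcription factor Atf4, which acts when amino acids are short, raises the transcription of many cytosolic synthetases through C/EBP-ATF elements, and MYC binds E-boxes at many genes of protein synthesis.

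Both elements were looked for on both strands in the 250 bases before the RefSeq start (GRCm38.p6) of the 26 measured synthetases with a promoter entry. TGATGNAA, the core of the C/EBP-ATF element, was found in 3 promoters (11.5%), against 3.91% of 27025 promoters of all genes. CACGTG, the E-box, was found in 3 (11.5%), against 6.86% of all. All of these matches were in the 13 cytosolic promoters searched, and none was in the 13 mitochondrial ones. The stretches around the C/EBP-ATF core are shown because Aars, Gars and Tars were all lower in MYC TAMs than in control TAMs (below). They lie at chr8:111033700-111033767 on the plus strand for Aars, chr6:55037941-55038000 on the plus strand for Gars and chr15:11399659-11399703 on the minus strand for Tars. Each is written along its gene's own strand, and the capitals mark the core, which lies on the other strand in each and so reads as its reverse complement.
Aars: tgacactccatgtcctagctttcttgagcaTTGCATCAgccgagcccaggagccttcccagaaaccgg
Gars: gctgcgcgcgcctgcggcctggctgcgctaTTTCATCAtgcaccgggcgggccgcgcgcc
Tars: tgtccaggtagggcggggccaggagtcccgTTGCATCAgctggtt
The E-box, in capitals in the next stretches, was found at chr8:111033666-111033731 (plus strand, Aars), chr1:78488901-78488966 (minus strand, Farsb) and chr13:49682031-49682096 (plus strand, Iars).
Aars: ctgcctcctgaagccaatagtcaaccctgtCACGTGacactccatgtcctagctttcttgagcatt
Farsb: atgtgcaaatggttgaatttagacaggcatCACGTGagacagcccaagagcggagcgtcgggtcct
Iars: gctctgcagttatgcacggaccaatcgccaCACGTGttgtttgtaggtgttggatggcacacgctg
Of these, Aars and Iars were called lower in MYC TAMs and Farsb was not. A match is a description of the letters and does not show that a factor binds there.

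All values below are the authors' log2 expression, which behaved as log2 of 1 plus a read number scaled for depth and gene length, so a difference of 1 is a factor of 2 for a well expressed gene and understates the change of a low one. The libraries held an estimated 33800000 to 44600000 reads in genes. The library of TAMs from MYC mouse 4 stood apart, with 581 genes without a read against 2072 to 3522 in the other libraries, and it received the lowest weight (0.0827) when libraries were weighted by their scatter. The libraries labelled MYC TAM also went against their gate: Vcam1, the gene of the sorted protein, was at 0.96, 1.61 and 2.82 in MYC TAMs, against 8.60, 7.64 and 8.57 in control TAMs and it was at 2.32 and 2.31 in MYC MTMs, against 5.31, 6.86 and 5.25 in control MTMs. Its level was thus lower in both populations of MYC mice. Folr2, the other gate gene, was low in TAMs of both genotypes, at 1.07, 1.44 and 3.62 in those of MYC mice, against 0.96, 1.37 and 1.77 in those of control mice, and it was at 8.45 and 8.07 in MYC MTMs, against 7.77, 8.05 and 7.67 in control MTMs. Emr1, which encodes F4/80, was at 7.50, 7.57 and 8.37 in MYC TAMs, against 9.93, 9.40 and 9.56 in control TAMs. The Myc gene itself was at 2.16, 1.92 and 1.78 in MYC TAMs, against 2.66, 3.18 and 3.11 in control TAMs, and at 2.87 and 3.02 in MYC MTMs, against 2.53, 2.62 and 2.75 in control MTMs. Whether transgene reads were counted in that gene is not given in the sources used here. Every result on MYC TAMs below rests on these 3 libraries. The comparisons of MYC MTMs with control MTMs and of control TAMs with control MTMs set no MYC TAM library against another group, although all 11 libraries share 1 estimate of the spread.

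Averaged over the 11 libraries, the cytosolic gene Nars, for asparaginyl-tRNA synthetase, had the highest level of the 35 genes (7.64), followed by Gars (glycyl, 6.95) and Dars (aspartyl, 6.77). The lowest were the mitochondrial genes Wars2 (tryptophanyl, 0.75) and Pars2 (prolyl, 0.18). Pars2 rested on an estimated 6.0 to 18.9 reads per library and Wars2 on 63.6 to 206.4, so that differences of either gene are poorly resolved. The 20 cytosolic genes together averaged 4.79 ± 0.16 in MYC TAMs and 5.47 ± 0.15 in control TAMs (SD, n = 3 each), and 5.23 ± 0.01 in MYC MTMs (SD, n = 2) and 5.37 ± 0.11 in control MTMs (SD, n = 3).

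Synthetase genes were lower in MYC TAMs than in control TAMs. With limma and Benjamini-Hochberg adjustment over all genes, 16 of the 35 fell at an adjusted p below 0.05 and 0 rose. Of all 17475 genes, 15.9% were called in this comparison and 12.0% were called lower. Among the 9375 genes whose mean level was at least 1, to which 33 of the synthetases belonged, 18.1% were called lower. The median difference of the 35 genes was -0.60, against -0.02 over all genes and -0.21 over those better expressed genes. The difference lay below 0 for 34 of the 35 genes, against 52.8% of all genes, and for 29 after median centring of the libraries, 29 after quantile normalisation and 26 after removal of a trend with gene length. In 23 genes every MYC TAM library lay below every control TAM library, which held for 22.1% of all genes.

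**Figure D1:**
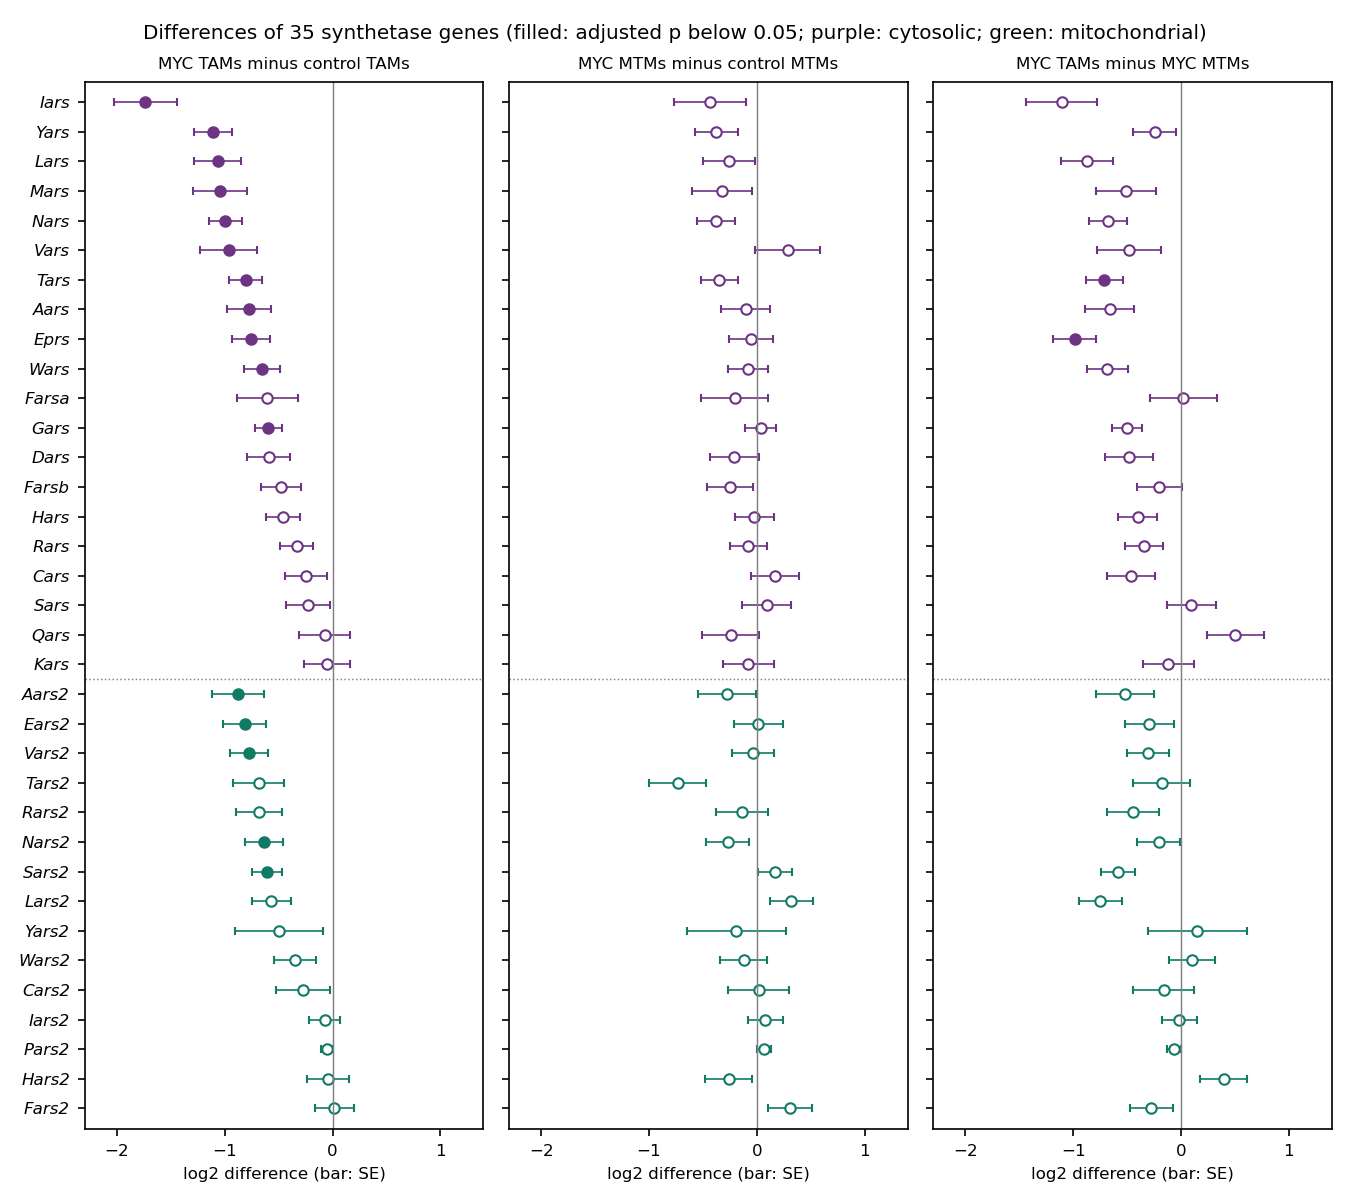
Log2 differences of the 35 measured synthetases (rows) in MYC TAMs minus control TAMs, MYC MTMs minus control MTMs, and MYC TAMs minus MYC MTMs (points: difference; bars: SE; filled points: adjusted p below 0.05; purple: cytosolic; green: mitochondrial). In the first panel 16 points are filled and all lie left of 0, in the second none is filled, and in the third Eprs and Tars are filled.

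The multisynthetase complex accounted for 4 of these calls among its 8 genes, namely Iars, Lars, Mars and Eprs. Iars, the isoleucyl enzyme, whose gene lies on chromosome 13, was at 3.27, 3.96 and 4.60 in MYC TAMs, against 5.51, 5.90 and 5.62 in control TAMs. It had the greatest difference of the 35 genes, and the groups did not overlap (difference -1.74, SE 0.30; limma adjusted p = 0.0041). Lars, the leucyl enzyme, which has also been described as a leucine sensor upstream of mTORC1, was at 4.39, 4.91 and 5.19 in MYC TAMs, against 5.61, 6.14 and 5.94 in control TAMs (difference -1.07, SE 0.22; limma adjusted p = 0.0093). Every MYC TAM library was again below every control TAM library. Mars, the methionyl enzyme, was at 4.10, 4.39 and 5.20 in MYC TAMs, against 5.46, 5.79 and 5.58 in control TAMs, and differed by -1.04 (SE 0.25; limma adjusted p = 0.020). Eprs, the glutamyl-prolyl enzyme and the only cytosolic source of prolyl-tRNA charging in the list, was at 3.98, 4.29 and 4.53 in MYC TAMs, against 4.70, 5.17 and 5.20 in control TAMs, and differed by -0.76 (SE 0.18; limma adjusted p = 0.019).

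The other 4 genes of the complex did not pass the test. Dars, the aspartyl enzyme, averaged 6.33 ± 0.22 in MYC TAMs and 6.92 ± 0.31 in control TAMs (SD, n = 3 each), without overlap but at an adjusted p of 0.080 in limma. Rars (arginyl) differed by -0.33, and its libraries overlapped. Qars (glutaminyl) and Kars (lysyl) had differences of -0.07 (SE 0.24) and -0.05 (SE 0.21), with overlapping libraries. Kars was at 6.07, 5.91 and 5.48 in MYC TAMs, against 5.50, 5.94 and 6.16 in control TAMs, so that members of the complex spanned most of the range seen among all 35 genes. The 3 scaffold genes gave 0 calls: Aimp2 differed by -0.51 (limma adjusted p = 0.069), Eef1e1 by -0.41 and Aimp1 by -0.12.

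Among the 12 cytosolic enzymes outside the complex, 7 fell. Nars, the highest of all, was at 6.79, 6.80 and 7.28 in MYC TAMs, against 7.83, 8.01 and 8.00 in control TAMs. The TAMs of MYC mouse 6 were nearest to the controls, and the groups were separate (difference -0.99, SE 0.15; limma adjusted p = 0.0025). Yars, the tyrosyl enzyme, whose cleaved fragments act as cytokines in human cells, was at 2.69, 2.94 and 3.07 in MYC TAMs, against 3.93, 4.25 and 3.84 in control TAMs (difference -1.11, SE 0.18; limma adjusted p = 0.0029). Tars, the threonyl enzyme, was at 5.29, 5.62 and 5.57 in MYC TAMs, against 6.02, 6.48 and 6.40 in control TAMs (difference -0.81, SE 0.15; limma adjusted p = 0.0065). None of these 3 genes showed an overlap between the groups.

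Gars, which serves both compartments, was at 6.57, 6.41 and 6.75 in MYC TAMs, against 7.09, 7.25 and 7.17 in control TAMs (difference -0.60, SE 0.13; limma adjusted p = 0.011). Aars, the alanyl enzyme, averaged 3.28 ± 0.42 in MYC TAMs and 4.05 ± 0.15 in control TAMs (SD, n = 3 each), with a limma adjusted p of 0.030. It shares 14.3% of its exon bases with Exosc6 on the same strand, and how reads there were assigned is not given in the sources used here. Vars, the valyl enzyme, which associates with the elongation factor eEF1, differed by -0.96 (SE 0.27; limma adjusted p = 0.037), and it scattered more among MYC TAMs, at 5.10, 4.73 and 4.15. Wars, the tryptophanyl enzyme, which interferon gamma induces in human cells, was at 3.50, 3.31 and 3.59 in MYC TAMs, against 4.19, 4.28 and 3.90 in control TAMs (difference -0.65, SE 0.17; limma adjusted p = 0.028). The remaining 5 were not called: Farsa and Farsb, the 2 subunits of the phenylalanyl enzyme, differed by -0.60 and -0.48, Hars (histidyl) by -0.46, Cars (cysteinyl) by -0.25 and Sars (seryl) by -0.23. Farsb shares 9.47% and Hars 7.97% of exon bases with a gene on the opposite strand, and whether the counting used strand is not given in the sources used here.

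Sorting the 20 cytosolic genes in other ways gave similar counts. Of the 10 enzymes for amino acids that must come from the diet 6 fell, and of the other 10 genes 5 fell. By catalytic fold, 6 of 9 class I and 4 of 10 class II enzymes fell, with median differences of -0.96 and -0.59, and Eprs holds both folds. Whether the calls differ between such groups was not tested.

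**Figure D2:**
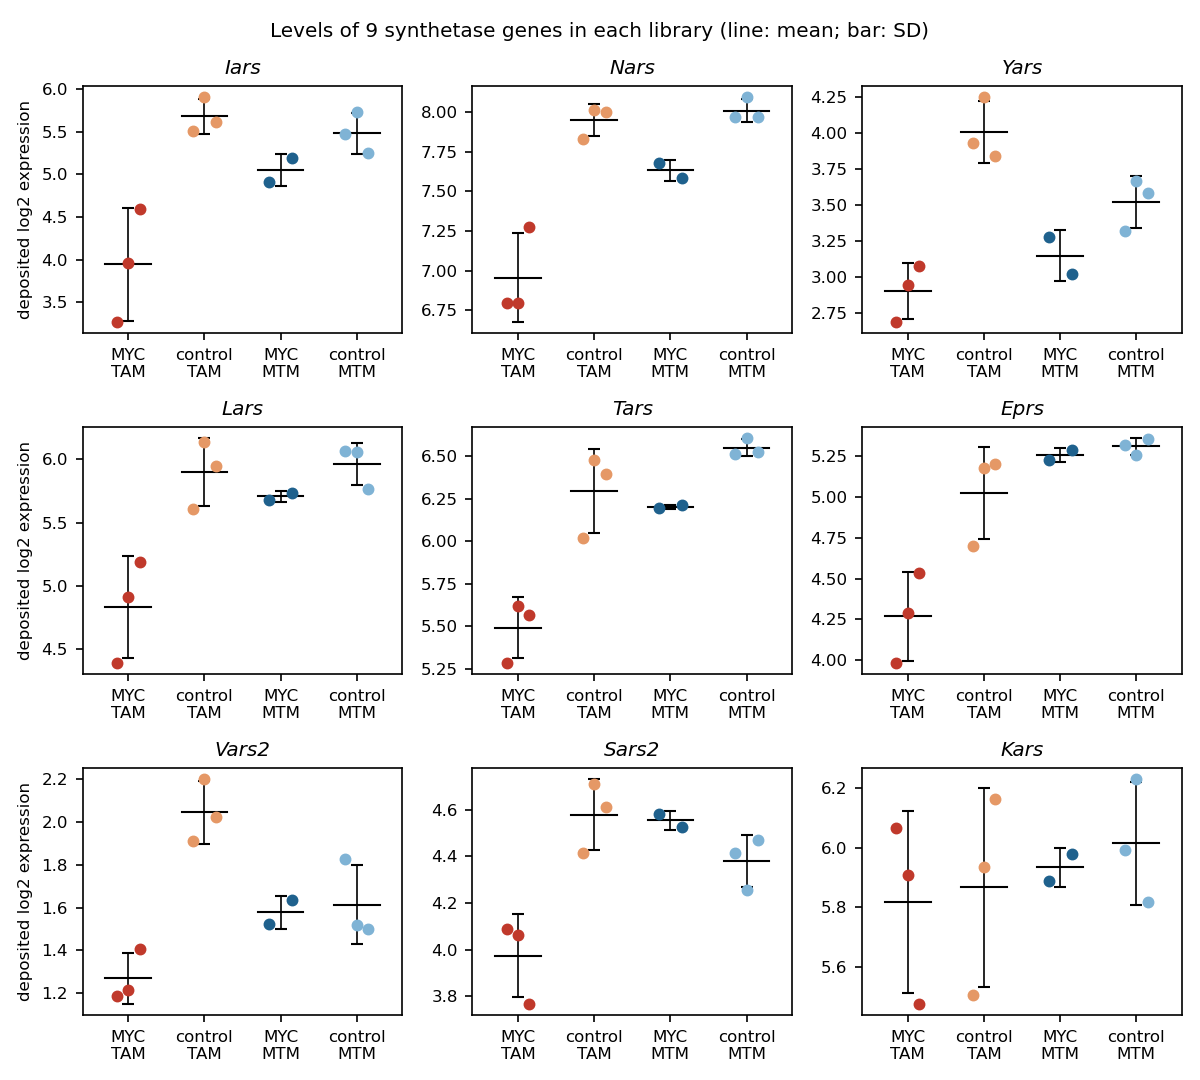
Deposited log2 expression of 9 synthetases in each library (points), with the group mean (line) and SD (bar); each panel has its own vertical scale, which does not start at 0. MYC TAMs lie below control TAMs in 8 of the panels, from Iars to Sars2, and Kars, shown as a gene that was not called, overlaps between all groups.

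Of the 15 mitochondrial genes, 5 fell in MYC TAMs and the median difference was -0.57. Vars2, the valyl enzyme, was at 1.19, 1.22 and 1.41 in MYC TAMs, against 1.91, 2.20 and 2.02 in control TAMs (difference -0.78, SE 0.17; limma adjusted p = 0.015). Sars2, the seryl enzyme, was at 4.09, 4.06 and 3.77 in MYC TAMs, against 4.41, 4.71 and 4.61 in control TAMs (difference -0.61, SE 0.14; limma adjusted p = 0.018). Ears2, the glutamyl enzyme, which in mitochondria also feeds the charging of glutamine tRNA, was at 1.48, 1.86 and 1.30 in MYC TAMs, against 2.35, 2.50 and 2.24 in control TAMs (difference -0.81, SE 0.20; limma adjusted p = 0.023). Libraries of the 2 groups did not overlap in any of these. Aars2 (alanyl) and Nars2 (asparaginyl) were the other calls, with differences of -0.87 (SE 0.24) and -0.63 (SE 0.18) and limma adjusted p-values of 0.037 and 0.039.

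A further 3 mitochondrial genes had separate libraries without passing the test: Rars2 (arginyl, -0.68), Tars2 (threonyl, -0.68) and Lars2 (leucyl, -0.57), at limma adjusted p-values of 0.059, 0.085 and 0.061. Differences closest to 0 were those of Iars2 (-0.07), Pars2 (-0.05), Hars2 (-0.04) and Fars2 (0.01), and the libraries of all 4 overlapped. Iars2 was at 3.90, 3.76 and 4.09 in MYC TAMs, against 3.88, 3.92 and 4.17 in control TAMs, although it shares 22.9% of its exon bases with Rab3gap2 on the opposite strand. Yars2 was too scattered to place, at 0.43, 2.17 and 1.52 in MYC TAMs.

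Which calls held depended on the gene. Of the 16, Iars, Nars and Yars were called in all 21 alternatives tried, and with them Gars, Lars and Tars whichever library was left out. The count was 7 after centring, after quantile normalisation, with the length trend removed, or with the epithelial marker level as a covariate. It was 4 when only the 2 groups were fitted, 6 without the TAMs of control mouse 3, and 9 without those of MYC mouse 2 or of control mouse 5. Calls over all genes fell too. The share called lower, 12.0% as reported, was 8.66% after centring and 8.89% after quantile normalisation. With the length trend removed it was 8.72%, with the covariate 5.07%, and with only the 2 groups 6.62%. Without the TAMs of control mouse 3 it was 7.35%, of MYC mouse 2 8.56%, and of control mouse 5 8.24%.

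Other measured features moved with these libraries, in a comparison where 12.0% of all genes were called lower and 680 of 17475 were called higher. The 12 proliferation genes averaged 2.63, 2.42 and 2.25 in MYC TAMs, against 3.81, 4.44 and 4.16 in control TAMs, and 11 of 12 fell. Of 16 mammary epithelial markers, 8 fell and 13 had differences below 0. The summed level of the 16 on the log2 scale was 5.34 to 8.72 in MYC TAMs, against 9.38 to 10.52 in control TAMs. Krt8 and Krt18 were above 2 in every library. Krt14 went the other way, at 5.11, 3.55 and 3.57 in MYC TAMs, against 2.59, 3.53 and 2.63 in control TAMs, and was not called. Of 12 T and NK cell markers, 8 fell, their summed level was 2.09 to 3.18 in MYC TAMs, against 6.05 to 7.16 in control TAMs, and Cd3e was at its floor of 0.04 in all 3 MYC TAM libraries. Of 9 macrophage genes, 5 fell and 2 rose. Of 7 neutrophil markers, 3 rose (S100a8, Cxcr2 and Mmp8) and 0 fell, and 2 of 7 B and plasma cell and 2 of 7 dendritic cell markers fell. With the epithelial level as a covariate, which gave 7 calls, the median difference of the synthetases was -0.62, against -0.60 without it. Since the epithelial level itself differed between these groups of 3 libraries, that fit cannot tell its part from that of genotype. The part of epithelial or other cells, and of proliferation, in the synthetase result was not tested. In sorted bulk samples, fewer cells of a type and less RNA per cell cannot be told apart. RNA integrity numbers spanned 3.3 to 9.6 and are not given per library. Among 9283 genes of known exon length whose mean level was at least 1, Spearman's rho between length and the MYC TAM minus control TAM difference was -0.15, and among the 35 synthetases it was -0.08.

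Both compartments were lower in MYC TAMs, with median differences of -0.63 over the cytosolic and -0.57 over the mitochondrial genes. The calls were 11 cytosolic and 5 mitochondrial, and they depended on the processing. They were 7 and 0 after quantile normalisation, with the length trend removed or with the epithelial covariate, and 6 and 1 after centring. With only the 2 groups fitted they were 4 and 0. In a fit of genes averaging 1 or more they were 11 and 7, with 21.4% of those genes called lower. The gap between the mean level of the 20 cytosolic genes and that of the 15 mitochondrial genes was 2.14, 2.04 and 2.42 in MYC TAMs, against 2.30, 2.50 and 2.45 in control TAMs, so that the libraries overlapped. The mean gap was 2.20 in MYC TAMs and 2.42 in control TAMs, and whether the compartments differed was not tested. The gap was 2.47 and 2.39 in MYC MTMs, against 2.41, 2.68 and 2.43 in control MTMs. Mitochondrial genes averaged 2.59 ± 0.09 in MYC TAMs and 3.05 ± 0.06 in control TAMs (SD, n = 3 each), and these libraries did not overlap.

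**Figure D3:**
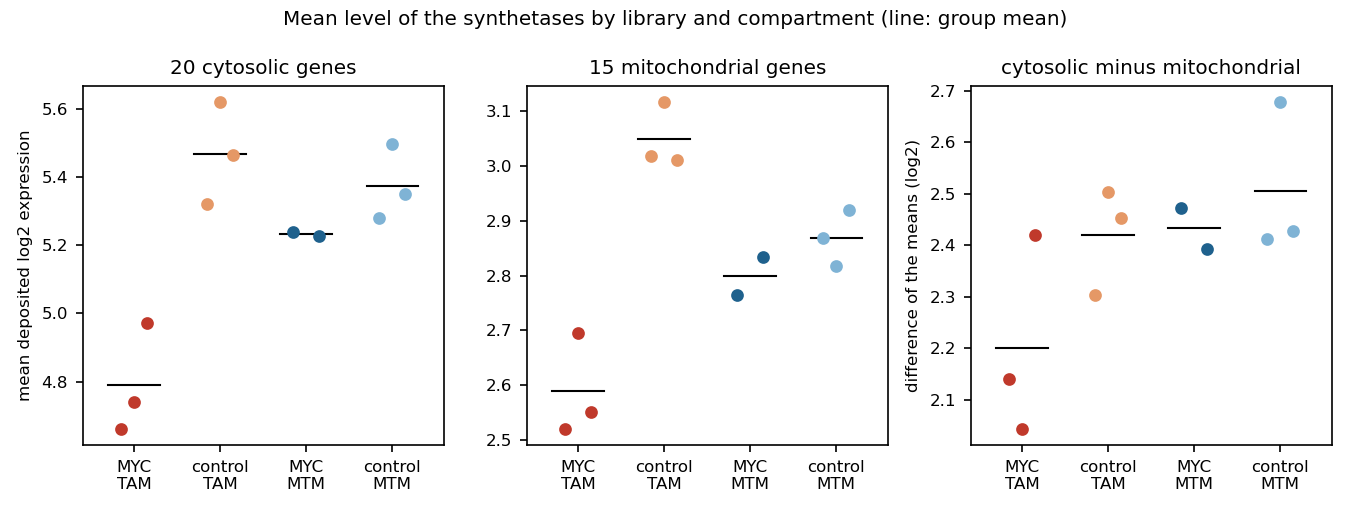
Mean log2 expression of the 20 cytosolic and the 15 mitochondrial synthetases in each library (points; line: group mean). In both compartments the 3 MYC TAM libraries lie below the 3 control TAM libraries, and the third panel shows the difference of the 2 means, in which these groups overlap. Axes do not start at 0.

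For 12 amino acids both enzymes have a measured gene of their own, and the pairs differed in whether their 2 genes moved together. For isoleucine the groups were separate: the level of Iars minus that of Iars2 was -0.63, 0.20 and 0.50 in MYC TAMs, against 1.63, 1.99 and 1.45 in control TAMs. It was 1.07 and 1.16 in MYC MTMs, against 1.72, 1.85 and 1.30 in control MTMs. The mitochondrial gene was higher than the cytosolic one in 1 library, the TAMs of MYC mouse 2. For asparagine, Nars minus Nars2 was 4.58, 4.69 and 4.75 in MYC TAMs, against 5.11, 5.08 and 4.91 in control TAMs, also without overlap. In the other 10 pairs the MYC TAM and control TAM libraries overlapped. For cysteine the order was the other way round, with Cars below Cars2 in 9 of 11 libraries.

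**Figure D4:**
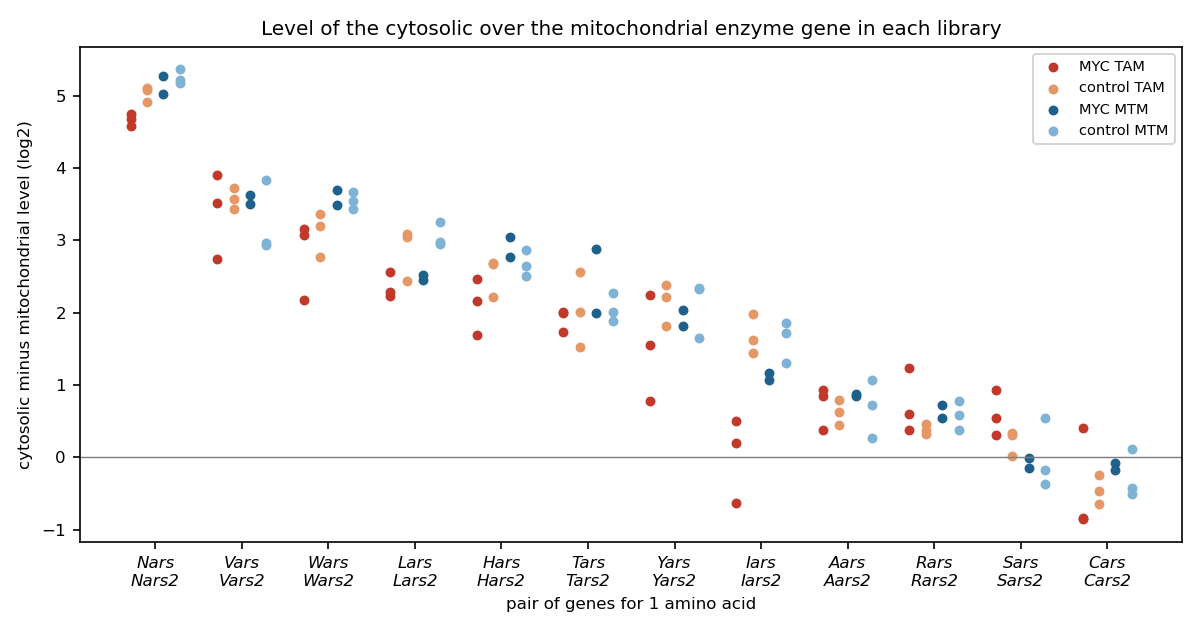
Level of the cytosolic gene minus that of the mitochondrial gene (log2) for 12 amino acids, 1 point per library, coloured by group. The isoleucine pair is near 0 in MYC TAMs and above 1 in every other library, and the asparagine pair has the widest gap, between 4.58 and 5.36.

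In MTMs no synthetase passed the test between genotypes. With limma, 0 of 35 genes were called in MYC MTMs minus control MTMs, where 0.618% of all genes were called, and 1 had an unadjusted p below 0.05, as had 10.1% of all genes. That gene was Tars2, at 3.31 and 4.21 in MYC MTMs, against 4.50, 4.33 and 4.64 in control MTMs. The median difference was -0.10, against -0.02 over all genes and -0.06 over genes averaging 1 or more. In this comparison 9 genes had separate libraries with MYC MTMs the lower, as had 20.1% of all genes. They were 6 cytosolic genes (Nars, Iars, Lars, Mars, Tars and Yars) and 3 mitochondrial ones (Nars2, Tars2 and Wars2). A further 4, all mitochondrial (Fars2, Lars2, Pars2 and Sars2), had separate libraries with MYC MTMs the higher, as had 11.1% of all genes. Both counts of separate genes lie near the shares over all genes and rest on 2 MYC MTM libraries. Pars2, which rests on few reads, was at 0.201 and 0.240 in MYC MTMs, against 0.093, 0.158 and 0.199 in control MTMs. None of the genes with separate libraries passed the test, and whether the compartments differed here was not tested. Nars was at 7.68 and 7.59 in MYC MTMs, against 7.97, 8.09 and 7.97 in control MTMs (difference -0.38, SE 0.17; limma adjusted p = 0.52). Vars and Lars2 had positive differences, of 0.29 and 0.32, and were not called.

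Between the populations of MYC mice, 2 of 35 genes (5.71%) were called lower in TAMs than in MTMs. Of all genes, 4.49% were called and 3.82% were called lower, so that this count is near the background. Eprs was at 3.98, 4.29 and 4.53 in MYC TAMs, against 5.23 and 5.28 in MYC MTMs (difference -0.99, SE 0.20; limma adjusted p = 0.025). Tars was at 5.29, 5.62 and 5.57 in MYC TAMs, against 6.19 and 6.21 in MYC MTMs (difference -0.71, SE 0.17; limma adjusted p = 0.047). Both genes were separate between the populations by more than the range within either. Libraries were separate with TAMs the lower for 20 of the 35 genes, 14 cytosolic and 6 mitochondrial, against 23.5% of all genes. The median difference of the 35 genes was -0.34, against -0.01 over all genes and -0.20 over genes averaging 1 or more. Of the 35 differences, 29 lay below 0, against 51.7% of all genes. With mouse as a fixed block the calls were Eprs, Iars and Nars, 3 genes in place of 2, and Tars had an adjusted p of 0.087 in limma. The count fell to 0 without the TAMs of MYC mouse 2, of MYC mouse 4, or either MYC MTM library, was 1 without the TAMs of control mouse 3 or 5 or any control MTM library, and was 7 without the TAMs of MYC mouse 6. With 1 MYC MTM library left, that library was assumed to vary like the other groups.

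In control mice no synthetase passed the test between the 2 populations. With limma 0 of 35 genes were called in control TAMs minus control MTMs, where 2.37% of all genes were called. The median difference was 0.13, against -0.004 over all genes and -0.04 over genes averaging 1 or more. Unadjusted p-values below 0.05 were found for 4 of the 35 genes (Vars, Yars, Ears2 and Vars2, all with higher values in control TAMs) and for 11.8% of all genes, so that this count is at the background. Vars was at 5.64, 5.77 and 5.46 in control TAMs, against 4.76, 4.48 and 5.33 in control MTMs (difference 0.77, SE 0.27; limma adjusted p = 0.24). Yars was at 3.93, 4.25 and 3.84 in control TAMs, against 3.32, 3.67 and 3.58 in control MTMs (difference 0.49; limma adjusted p = 0.26). The libraries of both genes were separate. Separate libraries with control TAMs the higher were found for 7 of the 35 genes, against 6.90% of all genes. For 2 of the 35, libraries were separate with control TAMs the lower. The share of all genes in that direction is not given here, so this count cannot be set against a background.

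Whether the TAM minus MTM difference itself differed between genotypes was tested as an interaction. With limma 0 of 35 genes passed, where 1.24% of all genes did, and the smallest adjusted p was 0.15, for Sars2. Unadjusted p-values below 0.05 were found for 12 genes, all with lower values in MYC mice, and for 10.9% of all genes. The median was -0.44, against 0.01 over all genes and -0.15 over genes averaging 1 or more. Iars had the most negative value (-1.30, SE 0.44), followed by Vars (-1.25, SE 0.40), with limma adjusted p-values of 0.27 and 0.23. The calls in TAMs and the lack of calls in MTMs are therefore not shown to differ for any single synthetase.

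Genes that work with the synthetases were called in some of the other lists. Between MYC and control TAMs, 12.0% of all genes and 18.1% of genes averaging 1 or more were called lower. In MYC TAMs minus control TAMs, 2 of 7 mitochondrial charging partners fell: Qrsl1, the catalytic subunit of the amidotransferase that completes mitochondrial glutamine tRNA charging after Ears2, and Gatc, another subunit of it. Qrsl1 was at 2.04, 2.15 and 2.04 in MYC TAMs, against 2.97, 3.14 and 3.09 in control TAMs (difference -0.99, SE 0.15; limma adjusted p = 0.0024). Gatc was at 2.46, 2.40 and 2.77 in MYC TAMs, against 3.13, 3.23 and 3.44 in control TAMs (difference -0.72; limma adjusted p = 0.018). Neither overlapped between the groups. Of 10 genes of tRNA maturation and export, 3 fell: Elac2, which trims tRNA 3′ ends, by 0.99, Thg1l, which adds the 5′ guanylate to histidine tRNA, by 0.90, and Xpot, the nuclear exporter of tRNA, by 1.10 on the log2 scale. Xpot was at 2.40, 3.08 and 3.61 in MYC TAMs, against 3.87, 4.30 and 4.21 in control TAMs and 4.24 and 4.32 in MYC MTMs, and it was also called in MYC TAMs minus MYC MTMs (difference -1.25; limma adjusted p = 0.048).

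Of 21 genes of RNA polymerase III, which transcribes tRNAs, and its factors, Polr3b fell (-1.21) and Polr3gl rose (1.01). No other gene of this list was called, where 15.9% of all genes were called in MYC TAMs minus control TAMs. Polr3gl was at 3.02, 2.63 and 2.73 in MYC TAMs, against 1.51, 1.69 and 2.14 in control TAMs. No call was made among the 7 genes of proofreading and peptidyl-tRNA handling, the 4 of selenocysteine tRNA charging or the 4 of the eEF1 complex, which carries charged tRNA to the ribosome.

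Of 18 genes of the integrated stress response, 5 fell in MYC TAMs and 0 rose, where 12.0% of all genes were called lower. Their median difference was -0.30, against -0.02 over all genes and -0.21 over genes averaging 1 or more. The 5 were the eIF2 kinases Eif2ak1 and Eif2ak2, the Gcn2 activator Gcn1l1, the serine synthesis enzyme Psat1 and Ddit4, an inhibitor of mTORC1. Psat1 was at 2.07, 1.52 and 1.27 in MYC TAMs, against 2.73, 2.99 and 2.58 in control TAMs (difference -1.15; limma adjusted p = 0.021). Atf4 itself was at 4.28, 2.90 and 3.29 in MYC TAMs, against 3.29, 3.65 and 3.63 in control TAMs, and Asns, an Atf4 target that makes asparagine, was at 3.74, 2.38 and 2.14 in MYC TAMs, against 3.53, 4.65 and 3.35 in control TAMs. Libraries of both genes overlapped, and neither was called. Of 13 interferon-gamma genes, 5 fell, among them Ciita (-3.08), the master regulator of MHC class II, and the chemokine gene Cxcl10 (-2.86). Cxcl10 was at 2.00, 1.42 and 1.37 in MYC TAMs, against 3.95, 4.51 and 4.89 in control TAMs, without overlap.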

How the data were processed

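The deposited table holds log2 expression from the authors for 17475 genes in 11 libraries. Its formula is not given in the sources used here; from the values it behaved as log2 of 1 plus a scaled read number, with 82.9% of 5407 low values within 0.05 of whole reads. HISAT2, DESeq2 and mm10 are named, without a role, in the submitters' processing notes. Per the labels' protocols, 500 ng of RNA was poly-A selected and prepared with a stranded kit and 8 PCR cycles. The log2 values were used as deposited in limma 3.58.1 (R 4.3.3), with 4 group means, a mean-variance trend, no mouse block, all 11 libraries and Benjamini-Hochberg adjustment over all genes in each of 5 comparisons; scripts were tested on simulated data. Nothing says more than that libraries are separate sorts from named mice. The mouse number in the labels pairs TAMs with MTMs; deviations of the pairs from their group means correlated at 0.08 to 0.21 in control mice, and the 2 MYC pairs cannot be checked in this way. No pair of replicates held identical values. Exon lengths and overlaps came from GENCODE M21 (GRCm38) and promoters from RefSeq (GRCm38.p6). The named genes were all members and, of the listed pathways, those past the threshold; a few others were named after their values were seen. Members and lists were chosen with earlier results of these data known. Alternatives covered scaling, pseudocount, low-value filter, variance model, blocks, groups fitted, gene length, epithelial level and leaving out each library.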

Additional observations from a re-analysis of the deposited data

How the results depend on the processing

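The count of synthetases called in MYC TAMs minus control TAMs was 16. It was 7 after centring each library on the median of all genes, 7 after quantile normalisation, and 4 when the fit used only these 2 groups. In these fits 8.66%, 8.89% and 6.62% of all genes were called lower, against 12.0% as reported. The removal of the length trend and the epithelial covariate, both chosen after seeing the data, gave 7 each, where 8.72% and 5.07% of all genes were called lower. Leaving out 1 library gave 6 to 17, with 6 without control TAM 3, 9 without MYC TAM 2 and 9 without control TAM 5. Over all genes the share called lower in MYC TAMs minus MYC MTMs was 3.82% as reported. After centring that share was 2.13%, after quantile normalisation 2.29%, and with only these 2 groups 0.498%. The count of synthetases called in MYC TAMs minus MYC MTMs was 2. It was 0 after centring, 0 after quantile normalisation, 0 with only these 2 groups, 1 with a pseudocount of 0.25, 1 with the length trend removed, 4 among genes averaging 1 or more, 6 without a variance trend, 4 with library weights, 4 with a random mouse block, and 0 to 7 with 1 library left out. The fixed mouse block gave 3 calls there and could not be fitted for MYC against control, since each mouse has 1 genotype; the random replicate block left the TAM count at 16. The other 3 comparisons stayed at 0 calls in every alternative run. No called difference changed sign. Small differences that were not called did: after centring the median in MYC MTMs minus control MTMs was 0.01, against -0.10 as deposited, and in MYC TAMs minus control TAMs 29 synthetases lay below 0, against 34. Centring moved the median of all genes in MYC TAMs minus control TAMs from -0.02 to 0.19. The synthetase median relative to it was -0.58 in both, which centring cannot change because it shifts all genes of a library alike. Of the calls over all genes in MYC TAMs minus control TAMs, the share in the higher direction was 69.9% after centring. It was 41.6% after quantile normalisation and 72.0% with the length trend removed, against 24.5% as deposited. In MYC TAMs minus MYC MTMs that share was 35.8% after centring, 29.9% after quantile normalisation and 76.4% with the length trend removed, against 14.8%. Of the 16 genes, Vars was called in 8 of 22 fits, Aars2 and Nars2 in 9, Aars and Wars in 12, Ears2 in 14, Sars2 in 15, Mars and Vars2 in 16, Eprs in 17, Gars in 18, and Lars and Tars in 21. The causes were not tested. Low estimated read numbers limit Pars2 and Wars2.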
